A study of Mus musculus with 54 samples.

Results

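The circadian clock genes described here are 9 members listed by symbol: Per1, Per2, Per3, Dbp, Nr1d1, Nr1d2, Tef, Arntl and Ciart, out of 33126 gene names in the tables. They were followed through all 54 libraries of a study of how mouse kidneys are taken apart and stored before single-cell or single-nucleus RNA sequencing: 39 libraries of 10x Genomics droplets and 15 of bulk RNA, in 18 groups of 3. The rule that lists them names symbols and uses no measured value, but the members were chosen with earlier results of these data known.

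The first experiment used male AFAPIL.1DEL C57BL/6J mice of the same litter, 19 weeks old and free of earlier procedures. Their kidneys were dissociated either at 37 °C with a commercial enzyme kit (warm) or on ice with a protease of Bacillus licheniformis (cold). Suspensions of both kinds were sequenced as fresh cells, as cells cryopreserved in serum and DMSO for 6 weeks, as cells fixed in methanol and kept for 3 months, and as bulk RNA of the cells that were left. The second used untreated male Balb/c mice, 18 weeks old and of the same litter, as fresh cold-dissociated cells, as nuclei sorted after 3x500g washes, and as bulk RNA of intact frozen kidney. The third used untreated wild type female Balb/c mice, 15 weeks old and former breeders, as fresh and cryopreserved (2 weeks) cold-dissociated cells, as sorted nuclei washed either 3x500g or 1x2000g, as nuclei cleaned over sucrose without sorting, and as bulk RNA of intact kidney and of cold suspension. Each group held kidneys of 3 mice, which had been killed by cervical dislocation, with the kidneys put in ice-cold buffer. The time of day of harvest was not given in the sources used here, and the 3 experiments were done at different times with different mice, chemistries and bulk RNA selection, so levels of different experiments are set side by side, and the 1 comparison fitted across them, between strains, cannot tell strain from experiment.

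The circadian clock is a feedback loop of transcription that runs in nearly every cell. ARNTL (also called BMAL1) and its partner CLOCK bind E-box sequences and switch on the Per, Cry, Nr1d, Dbp, Tef and Ciart genes; PER and CRY proteins, with CIART, then hold back ARNTL and CLOCK, and the nuclear receptors NR1D1 and NR1D2 repress Arntl itself. Arntl RNA therefore normally peaks at about the opposite time of day from Dbp and Nr1d1. In the kidney this loop times sodium transport and filtration. Per1 is also an acute-response gene, which many cells induce within the hour after hormones, calcium or stress.

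Short sequences mark this loop: the E-box (CACGTG), the D-box bound by DBP and TEF (TTATGTAA or TTACGTAA), and the cyclic AMP response element (TGACGTCA) used by acute-response genes. They were searched on both strands in the 250 bases before each annotated start, in RefSeq promoters of build GRCm38.p6. The table held 11 promoters of 8 members, and Per2 had none. An E-box stood in 4 of the 11 promoters (Ciart, Per1 and both of Tef), against 6.02% of all 32851 promoters; a D-box stood in 1 (Per3), against 0.931%. The response element stood in 0 of the 11, against 1.55% of all promoters. These matches describe the letters only. A promoter is shown for each of the 4 members with a match, for Tef the first of its 2, with the matched letters in capitals; each runs 5′ to 3′ and ends at the base before the start.
Ciart, chr3:95882229-95882478, minus strand, 3 E-boxes: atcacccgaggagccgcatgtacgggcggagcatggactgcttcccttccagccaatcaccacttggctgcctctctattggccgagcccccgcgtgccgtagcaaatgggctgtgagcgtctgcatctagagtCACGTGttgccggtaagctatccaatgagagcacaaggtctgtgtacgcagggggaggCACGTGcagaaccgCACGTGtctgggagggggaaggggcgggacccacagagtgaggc
Per1, chr11:69098699-69098948, plus strand, 1 E-box: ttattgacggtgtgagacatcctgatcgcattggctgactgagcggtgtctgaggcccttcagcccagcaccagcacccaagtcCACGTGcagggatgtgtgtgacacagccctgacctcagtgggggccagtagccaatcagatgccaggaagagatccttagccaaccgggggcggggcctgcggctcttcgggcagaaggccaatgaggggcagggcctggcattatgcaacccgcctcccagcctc
Tef, chr15:81802423-81802672, plus strand, 1 E-box: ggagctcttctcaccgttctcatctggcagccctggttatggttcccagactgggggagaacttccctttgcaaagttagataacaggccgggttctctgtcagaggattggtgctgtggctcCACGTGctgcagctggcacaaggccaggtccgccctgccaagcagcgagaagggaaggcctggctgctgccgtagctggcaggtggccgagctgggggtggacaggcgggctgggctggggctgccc
Per3, chr4:151044666-151044915, minus strand, 2 D-boxes: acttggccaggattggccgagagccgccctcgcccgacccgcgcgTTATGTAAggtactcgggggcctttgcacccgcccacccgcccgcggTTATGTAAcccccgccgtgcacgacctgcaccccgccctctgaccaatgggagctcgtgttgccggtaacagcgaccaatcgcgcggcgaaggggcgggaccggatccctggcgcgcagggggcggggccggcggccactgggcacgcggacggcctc

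Levels are given in CPM, counts per 1000000: of all reads counted in bulk, and of all molecules (UMIs, unique molecular identifiers) without the mitochondrial genes in 10x. The 10x libraries held 983522 to 35170947 UMIs in 782 to 9308 barcodes, and the bulk libraries 2326998 to 31093949 reads. For the 10x tables the methods kept genes found in at least 10 cells and then removed further cells; a median of 105 genes per library stand above 0 in 1 to 9 cells, against 1455 in 10 to 19. A 0 was therefore read as a level too low to be kept, not as absence. Differences between groups are log2 fold changes ± SE from edgeR's quasi-likelihood test across all genes, with Benjamini-Hochberg adjustment, and a gene is called at an adjusted p under 0.05. The test gives no SE, so it was taken as the size of the log2 fold change over the square root of the F statistic. It is uncertain for differences near 0. Of 135 pairs of member and comparison, over 15 comparisons of 2 groups, 122 could be tested and 29 were called, 3 of them with libraries at 0. Over all genes the share called ran from 2.11% to 84.8% in these comparisons. The count of calls is therefore not read as a trait of the clock genes.

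In bulk RNA divided by exon length, the nuclear receptors and Tef were the most abundant members and Ciart the least. In the C57BL/6J cold suspensions, on the scale of CPM per kilobase, Nr1d1 stood at 38.8, Tef at 27.8 and Nr1d2 at 26.5. Dbp stood at 5.47 and Arntl at 3.39 on the same scale, and Per1 at 2.72, Per2 at 2.596 and Per3 at 2.58 were nearly level. Ciart stood at 0.461. Dbp and Nr1d1 share exon sequence with genes on the opposite strand, 18.01% of Dbp's exons with Sphk2 and 8.55% of Nr1d1's with Thra, and whether the bulk reads were counted by strand was not given in the sources used here, so these 2 bulk levels are uncertain.

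**Figure D1:**
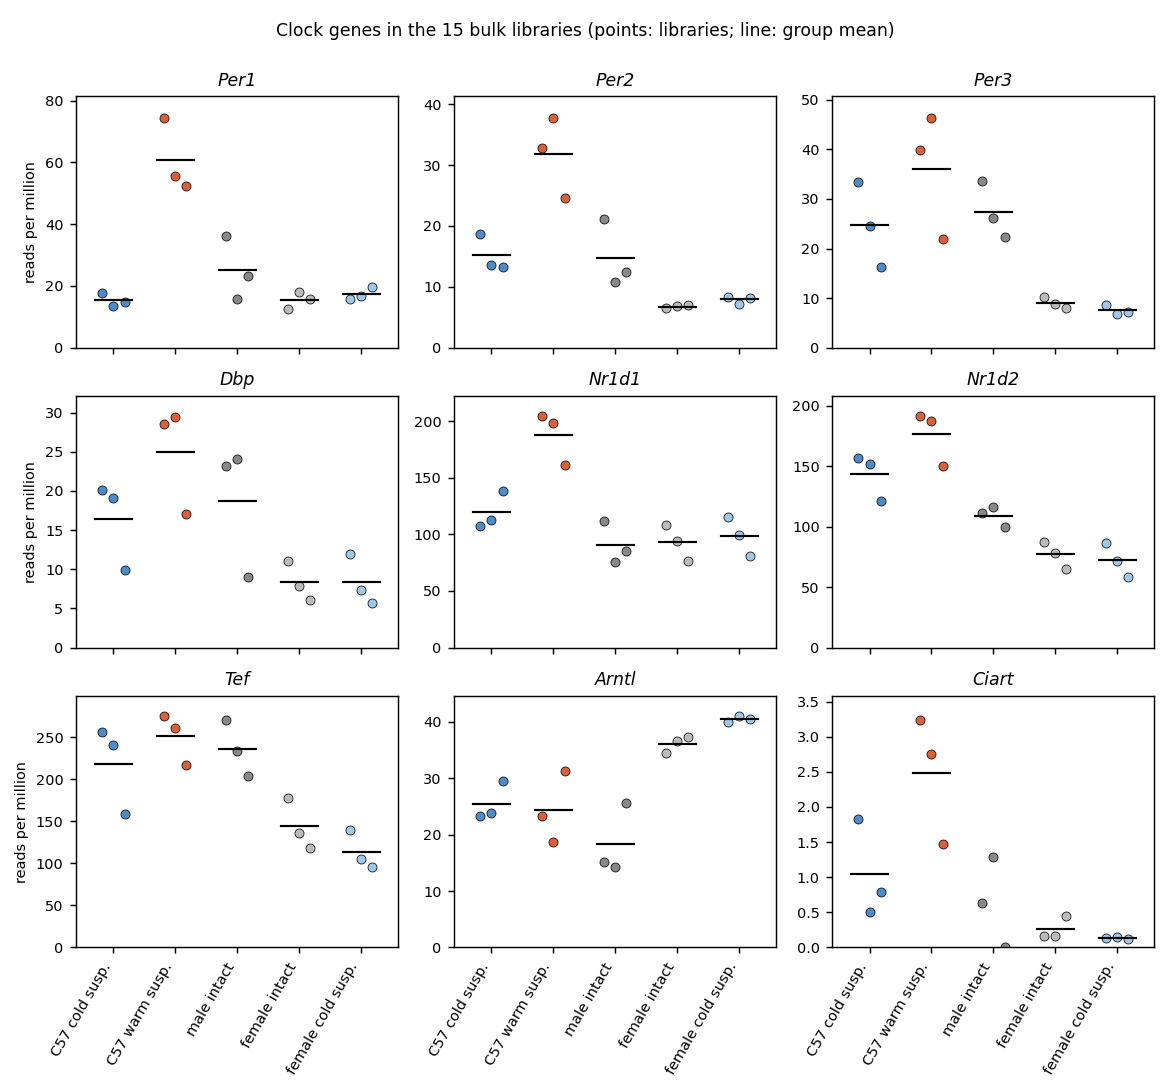
Level of each clock gene in the 15 bulk libraries, in CPM on a linear axis from 0; each point is a library and each line a group mean (omitted where a library is at 0). Per1 sits between 52.4 and 74.4 in the 3 warm C57BL/6J suspensions and at or below 36.0 in the other 12 libraries.

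The comparison of warm with cold dissociation asks whether the 2 protocols give different transcriptomes. They differ in enzymes, mechanical handling and spin speed as well as in temperature, and the parts of these cannot be told apart. In bulk RNA, 2 repressors and 1 nuclear receptor of the clock rose in warm suspensions: Per1 3.87-fold, Per2 2.02-fold and Nr1d1 1.55-fold. No member was called lower, and 3 of 9 were called where 8.68% of all 14102 genes tested were. Without the low-count filter 7 were called, all higher: Per3, Dbp, Nr1d2 and Ciart as well. That fit gave Per1 an adjusted edgeR p of 1.05e-63, and its errors were small beside the spread of the libraries. Per3 differed by 0.51 ± 0.11 there, where the SD of its log2 level was 0.503 in cold and 0.552 in warm. The calls that fit added are therefore not read as differences.

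Per1 stood at 17.6, 13.4 and 14.9 CPM in the cold libraries and at 74.4, 55.7 and 52.4 in the warm. Every warm library was above every cold one by more than the spread within either group, and the difference was 1.95 ± 0.14 (adjusted p = 3.64e-06). Per2, its paralog in the same repressor complex, stood at 18.7, 13.6 and 13.3 in cold and at 32.8, 37.8 and 24.6 in warm, a difference of 1.02 ± 0.16 (adjusted p = 0.00239). Nr1d1 stood at 107, 113 and 138 in cold and at 205, 198 and 162 in warm, a difference of 0.63 ± 0.11 (adjusted p = 0.00461). The groups did not overlap for any of these genes. Ciart, near the detection limit, had values of 1.83, 0.503 and 0.794 in cold and 3.24, 2.75 and 1.47 in warm, and its difference of 1.13 ± 0.44 did not pass (adjusted p = 0.148).

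The D-box factors and the activator did not pass in the same libraries with the filter. Dbp stood at 20.2, 19.1 and 9.85 in cold and at 28.6, 29.4 and 17.0 in warm, a difference of 0.57 ± 0.23 (adjusted p = 0.168). In each group 1 library, that numbered 3, was the lowest for all of Dbp, Per3, Tef and Nr1d2. Without the warm library numbered 3, Dbp (0.79, adjusted p = 0.0486) and Nr1d2 (0.38, adjusted p = 0.0387) passed, which made 5 calls. Per3 differed by 0.50 ± 0.25, Tef by 0.18 ± 0.14 and Arntl by -0.08 ± 0.17, with adjusted p from 0.279 to 0.832.

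Other genes of the loop and of acute responses give the setting of these calls. Of 17 other core clock genes, 1 was called in the bulk comparison: Bhlhe40, a repressor of ARNTL and CLOCK, which was 1.32 higher on the log2 scale. Of 9 clock-controlled output genes, Scnn1a (0.80) and Sgk1 (0.42) rose and 7 did not pass. Of 10 acute-response genes, 9 rose and 0 fell, with a median log2 difference of 3.85 against -0.01 over all genes; Fosb (9.04) and Fos (7.53) rose most. Of 5 glucocorticoid target genes, 2 rose, and of 5 heat shock genes, 4 rose. The authors' set of stress genes, picked from those induced in warm-dissociated samples, holds Fos, Fosb, Junb, Egr1, Ier2, Dusp1, Atf3, Hspa1a and Hspa1b. The rise of these genes from cold to warm suspensions, here and below, was therefore known beforehand and is no separate support. Both cold-inducible genes, Cirbp and Rbm3, did not pass. Erythrocyte genes fell in 3 of 4. Summed podocyte markers were 1068 to 1389 CPM in cold and 886 to 966 in warm, and collecting duct markers 242 to 472 and 762 to 982. The part of cell makeup in the bulk differences was not tested, and fewer cells of a type cannot be told apart from less RNA per cell in bulk samples.

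**Figure D2:**
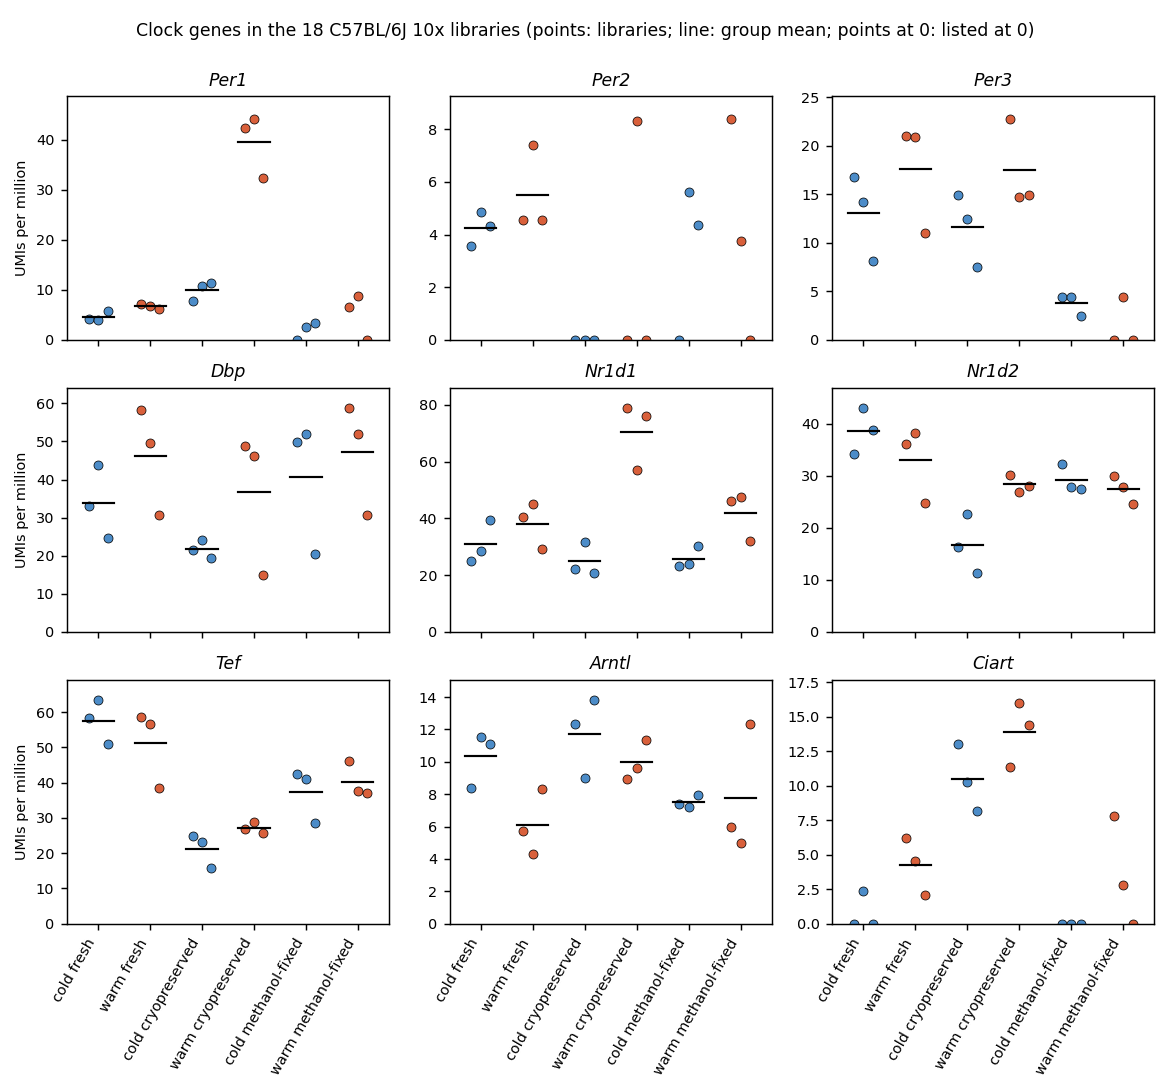
Level of each clock gene in the 18 C57BL/6J 10x libraries, in CPM on a linear axis from 0, by storage and dissociation (blue cold, red warm); points are libraries and lines group means, omitted where a library is at 0. Per1 reaches 32.3 to 44.1 in the warm cryopreserved libraries and stays at or below 11.3 in the other 15.

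In fresh 10x cells the same comparison called 0 of 9 members, where edgeR called 15.2% of 12051 genes. Per1 had values of 4.08, 3.96 and 5.85 CPM in cold and 7.16, 6.81 and 6.23 in warm, so the groups did not overlap, but the difference of 0.68 ± 0.24 did not pass (adjusted p = 0.0898). Whether the bulk and 10x differences differ was not tested. Per3 (0.63 ± 0.30), Dbp (0.60 ± 0.25) and Per2 (0.57 ± 0.30) were also higher in the warm means, and Arntl lower (-0.68 ± 0.25, adjusted p = 0.102). Arntl stood at 8.41, 11.5 and 11.1 in cold and at 5.73, 4.32 and 8.30 in warm, without overlap. Ciart was at 0 in 2 cold libraries and at 2.34 in the other, against 6.20, 4.51 and 2.08 in warm. At the warm mean those 2 cold libraries would have held 16.7 and 22.6 UMIs of Ciart. Without the cold library numbered 2 Ciart was called (adjusted p = 0.0482), from cold libraries all at 0.

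At an unadjusted p under 0.05, 3797 of the genes tested differed in this comparison, and DESeq2 also called 0 members. Of the acute-response genes, all 10 rose (median 3.30), Bhlhe40 rose by 0.88, and Clock (-0.50) and Csnk1e (-0.64), the kinase that phosphorylates PER proteins, fell. Summed podocyte markers were 612 to 1002 CPM in cold and 26 to 42 in warm; their part in the differences was not tested.

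Cells were also grouped into classes by clustering, with a class named from a list of markers, and members were compared inside each class. Of 11 pairs of class and member that could be tested between warm and cold fresh cells, 0 were called, where 3.91% of all tests were. In proximal tubule-like cells, which reabsorb most of the filtrate, Per3 differed by 1.06 ± 0.35 (adjusted p = 0.0821), Dbp by 0.49 ± 0.26 and Arntl by -0.84 ± 0.41. Per1 had too few UMIs in any class of these libraries to be tested.

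Among cryopreserved cells warm dissociation was followed by higher Per1 and Nr1d1, and these 2 of the 8 members tested were called where 6.6% of 10076 genes were. Per1 stood at 7.81, 10.7 and 11.3 CPM in cold and at 42.3, 44.1 and 32.3 in warm, a 3.93-fold difference (1.97 ± 0.23, adjusted p = 0.00384). Nr1d1 stood at 22.1, 31.7 and 20.8 in cold and at 78.9, 56.9 and 76.0 in warm, 2.79-fold higher (1.48 ± 0.20, adjusted p = 0.00799). Neither gene's groups overlapped. Without the warm library numbered 1 Nr1d1 differed by 1.40 (adjusted p = 0.0502), and without that numbered 3 by 1.42 (adjusted p = 0.0674). Nr1d2, the paralog of Nr1d1, had a difference of 0.73 ± 0.24 (adjusted p = 0.108), and Dbp one of 0.73 ± 0.39 (adjusted p = 0.312). Without the cold library numbered 2 Nr1d2 passed (1.052, adjusted p = 0.0388), and without the warm library numbered 3, where Dbp stood at 15.0 against 48.8 and 46.05, Dbp passed (1.13, adjusted p = 0.0423).

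The acute-response genes rose in 10 of 10 here as well, with a median of 1.33, and Bhlhe40 by 2.78. Of 8 clock-controlled output genes tested, 3 rose: Usp2 (1.35), Scnn1a (1.14) and Wee1, which was at 0 in 2 libraries. Summed proximal tubule markers were near 0 in both groups, 26 to 51 CPM in cold and 44 to 65 in warm, and thick ascending limb markers were 305 to 616 in cold and 2743 to 3940 in warm. Collecting duct principal cell-like cells made up 5.06% of cold and 13.95% of warm cryopreserved cells. A cluster of that class, of 557 cells over the C57BL/6J 10x libraries, drew 54.04% of them from 1 library. Its leading genes held the intercalated cell markers Aqp6 and Slc4a1 beside Aqp2 and Hsd11b2, so these shares are uncertain. The part of cell makeup in the differences, that of Scnn1a among them, was not tested.

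Whether the warm effect differs between storage states was tested as an interaction over 12 libraries. For Per1 the warm effect was 1.26 ± 0.34 larger on the log2 scale in cryopreserved than in fresh cells (adjusted p = 0.0489), where 6.01% of 11821 genes were called. This call sits at the threshold: leaving out any of 10 of the 12 libraries moved the adjusted p to between 0.0537 and 0.122. With the suspension number as a replicate block the adjusted p was 0.0771. That block ties warm to cold suspensions, which are not stated to share a mouse, so it is not a pairing of aliquots alone. For Nr1d1 the difference of effects was 0.99 ± 0.34 (adjusted p = 0.108), and for the other members it was not called. DESeq2 called Per1 (adjusted p = 0.0212) and Nr1d1 (adjusted p = 0.0276), as did edgeR over genes above 0 in every library (0.0207 and 0.0414), and RLE size factors left 0 calls (Per1 at 0.0518). Acute-response genes went the other way: 7 had a smaller warm effect in cryopreserved cells and 1 a larger.

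In methanol-fixed cells warm against cold called 0 of the 7 members tested by edgeR, where 2.11% of 10038 genes were called and 1580 differed at an unadjusted p under 0.05. Nr1d1 stood at 23.1, 24.0 and 30.2 in cold and at 46.1, 47.5 and 32.0 in warm, without overlap, a difference of 0.78 ± 0.19 (adjusted p = 0.0727); DESeq2 called it (adjusted p = 0.0058). Dbp (0.36 ± 0.33), Tef (0.18 ± 0.17), Arntl (0.01 ± 0.69) and Nr1d2 (-0.01 ± 0.15) were not called, nor were Per2 and Per3, each at 0 in 2 libraries. Per1 was at 0, 2.599 and 3.42 in cold and at 6.59, 8.75 and 0 in warm, under the low-count filter, as was Ciart. The interaction of methanol fixation with dissociation called 0% of 12029 genes, 1287 of them at an unadjusted p under 0.05, and DESeq2 likewise called 0 members.

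Cryopreserved cells were compared with fresh cells, aliquots of the same suspensions, to ask what storage changes. The main fits, here and for methanol fixation, did not pair the aliquots. After cold dissociation the D-box factors Dbp and Tef and the receptor Nr1d2 were lower in cryopreserved cells; with Per2, whose call rests on 0s, 4 of 9 members were called, where 50.5% of 11530 genes were called (2392 higher and 3427 lower). Tef, a PAR bZIP factor like Dbp, stood at 58.3, 63.3 and 50.9 CPM in fresh and at 24.7, 23.1 and 15.7 in cryopreserved libraries, a difference of -1.64 ± 0.16 (adjusted p = 0.000137). Nr1d2 stood at 34.1, 43.0 and 38.8 in fresh and at 16.3, 22.7 and 11.3 in cryopreserved, a difference of -1.37 ± 0.22 (adjusted p = 0.00156). Dbp stood at 33.1, 43.9 and 24.5 in fresh and at 21.5, 24.0 and 19.5 in cryopreserved, a difference of -0.83 ± 0.23 (adjusted p = 0.0189). Its groups did not overlap, and the call was lost without the cryopreserved library numbered 1 (-0.78, adjusted p = 0.0634) or 3 (-0.79, adjusted p = 0.053), or without the fresh one numbered 2 (-0.60, adjusted p = 0.0503).

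Per2 stood at 3.57, 4.86 and 4.34 in fresh cells and at 0 in all 3 cryopreserved libraries. At the fresh level these smaller libraries would have held 6.54 to 9.93 UMIs of Per2, close to the minimum of 10 cells in the methods, so no lower level of Per2 is read from these 0s. With the suspension number as a replicate block, its adjusted p was 0.147. Per1 was higher in the cryopreserved means (0.90 ± 0.40, adjusted p = 0.0958), Nr1d1 had a difference of -0.50 ± 0.25, Per3 one of -0.35 ± 0.33 and Arntl one of -0.06 ± 0.25. Ciart stood at 0, 2.34 and 0 in fresh and at 13.0, 10.3 and 8.18 in cryopreserved libraries and did not pass (adjusted p = 0.0588); at the cryopreserved mean the 2 fresh libraries at 0 would have held 41.2 and 55.6 UMIs.

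After warm dissociation cryopreserved cells had higher Per1 and Ciart and lower Tef and Nr1d2. These 4 of 9 members are a lower share than the 59.7% called of 10832 genes. Per1 stood at 7.16, 6.81 and 6.23 in fresh and at 42.3, 44.1 and 32.3 in cryopreserved libraries, 4.57-fold higher (2.19 ± 0.18, adjusted p = 5.11e-05). Ciart stood at 6.20, 4.51 and 2.08 in fresh and at 11.4, 16.0 and 14.4 in cryopreserved, 2.57-fold higher (1.36 ± 0.44, adjusted p = 0.0295); with the replicate block its adjusted p was 0.116, and leaving out any of 4 libraries lost the call (adjusted p up to 0.0826, without the fresh library numbered 2). Tef stood at 58.7, 56.5 and 38.4 in fresh and at 26.8, 28.8 and 25.7 in cryopreserved, a difference of -1.27 ± 0.20 (adjusted p = 0.00131). Nr1d2 differed by -0.59 ± 0.20 (adjusted p = 0.0407), its groups overlapped, and leaving out any of 5 of the 6 libraries lost the call (adjusted p 0.0659 to 0.115). The size of its fall rests in part on the scaling. Its mean went from 33.0 CPM in fresh to 28.4 in cryopreserved libraries, and scaling by library totals alone shifted every gene by 0.349. Dbp, at -0.71 ± 0.41 in this fit, passed with the replicate block (-0.75, adjusted p = 0.034). Nr1d1 (0.52 ± 0.20, adjusted p = 0.0591), Per3 (-0.41 ± 0.32) and Arntl (0.38 ± 0.35) were not called, nor was Per2, with 2 libraries at 0.

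Other genes moved with cryopreservation in both dissociations. Acute-response genes rose in 9 of 10 after cold and 10 of 10 after warm dissociation, with medians of 4.03 and 2.08 against -0.16 over all genes in each. Of the other core clock genes tested, 2 of 14 rose and 5 fell after cold dissociation, and 5 of 12 rose and 3 fell after warm; Hlf, the third PAR bZIP factor, was called lower in both, with 2 and 3 libraries at 0, and Csnk1e rose (1.40 and 2.20). Of the clock-controlled output genes tested, 2 of 7 rose and 4 fell after cold dissociation, and 4 of 8 rose and 3 fell after warm. Among them Edn1, which encodes endothelin-1, rose by 2.78 after cold and 3.36 after warm dissociation, and Alas1, the heme synthesis enzyme, fell by 2.41 and 2.32. Both cold-inducible genes rose. Over the same step the summed proximal tubule markers went from 5579 to 6299 CPM in cold fresh cells to 26 to 51, and from 6935 to 7423 to 44 to 65 after warm dissociation, while B cell markers rose from 390 to 787 to between 1652 and 2736 after cold dissociation. Inside classes, 1 pair could be tested after cold dissociation, Dbp in endothelial cell-like cells (-0.47 ± 0.40, adjusted p = 0.626), so 0 of 1 were called where 7.15% of all tests were. The part of cell makeup in the falls of Tef, Nr1d2 and Dbp was not tested beyond that pair.

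In the female Balb/c mice cryopreservation was followed by lower Tef and Nr1d2, 2 of the 7 members that could be tested, where 57.8% of 11934 genes were called. Tef stood at 40.8, 36.1 and 27.1 CPM in fresh and at 27.9, 17.1 and 24.3 in cryopreserved libraries, a difference of -1.01 ± 0.20 (adjusted p = 0.00265); the highest cryopreserved library was above the lowest fresh one. Nr1d2 stood at 28.1, 25.3 and 21.7 in fresh and at 28.7, 18.97 and 23.6 in cryopreserved, and its levels overlapped; its difference of -0.50 ± 0.16 (adjusted p = 0.0275) rests on the scaling, and was -0.08 (adjusted p = 0.667) when libraries were scaled by their totals alone, which shifted every gene by 0.42. On that scale 4 members were called, 1 lower and 3 higher: Tef at -0.60 (adjusted p = 0.0257), Per1 at 1.19 (adjusted p = 0.00991), Per3 at 0.886 (adjusted p = 0.0209) and Dbp at 0.612 (adjusted p = 0.0438), so the balance of directions rests on the scaling. The call of Nr1d2 in the main fit was also lost without the cryopreserved library numbered 2 or 3 or the fresh one numbered 1 or 2 (adjusted p 0.0715 to 0.0967). Per1 was at 3.27, 3.98 and 5.43 in fresh and at 6.54, 14.6 and 7.77 in cryopreserved, without overlap, at 0.77 ± 0.32 (adjusted p = 0.0675); without the cryopreserved library numbered 1 it passed (1.03, adjusted p = 0.0382), as without the fresh library numbered 3 (0.96, adjusted p = 0.0399). Per3 had a difference of 0.47 ± 0.28, which passed without the fresh library numbered 1 (0.77, adjusted p = 0.0255). Summed proximal tubule markers were 5177 to 6304 in fresh and 777 to 1511 in cryopreserved libraries. Dbp (0.19 ± 0.24), Nr1d1 (-0.18 ± 0.20) and Arntl (-0.24 ± 0.15) were not called. Per2 and Ciart have no value in every library of this comparison and were not analysed there.

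After cold dissociation methanol-fixed cells had lower Per3 and Tef, 2 of the 8 members tested, a share close to the 28.2% called of 12004 genes. Per3, the third Per paralog, stood at 16.8, 14.2 and 8.11 CPM in fresh and at 4.37, 4.40 and 2.47 in fixed libraries, a difference of -1.65 ± 0.34 (adjusted p = 0.0076), without overlap. Tef stood at 42.4, 41.0 and 28.7 in fixed libraries, a difference from fresh of -0.47 ± 0.14 (adjusted p = 0.0382), and the call was lost without any 1 of the 6 libraries (adjusted p 0.0504 to 0.145). Dbp stood at 49.8, 52.0 and 20.3 in fixed libraries (0.40 ± 0.32), Nr1d1 at 23.1, 24.0 and 30.2 (-0.08 ± 0.21) and Nr1d2 at 32.3, 27.8 and 27.5 (-0.25 ± 0.13), none of them called, nor were Arntl (-0.29 ± 0.20) or Per1 and Per2, each at 0 in 1 fixed library. After warm dissociation 1 of 9 was called, where 17.3% of 10861 genes were: Per3, at 21.001, 20.9 and 11.0 in fresh and at 0, 4.37 and 0 in fixed libraries (adjusted p = 0.0278). At the fresh level the 2 libraries at 0 would have held 14.3 and 29.4 UMIs of Per3. This call was lost without any 1 of the fresh libraries (adjusted p 0.0745 to 0.183) and without the fixed library numbered 1 (adjusted p = 0.0599).

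The methanol comparison could also be made inside classes, since proximal tubule markers stayed at 4972 to 5891 in the cold fixed libraries. Of 11 pairs tested 2 were called, where 21% of all tests were: in proximal tubule-like cells Tef differed by -0.86 ± 0.17 (adjusted p = 0.00389) and Per3 by -1.51 ± 0.44 (adjusted p = 0.028). Nr1d2 there had a difference of -0.46 ± 0.16 (adjusted p = 0.056) and Dbp one of 0.32 ± 0.33. The call of Per3 was lost without the fresh library numbered 1 or 2 or the fixed library numbered 2 or 3 (adjusted p 0.0988 to 0.112). Erythrocyte genes rose in 2 of 4 with fixation after cold and in 4 of 4 after warm dissociation, and acute-response genes were called in 0 of 9 and, lower, in 4 of 10.

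The order of the suspensions over the storage states was read for the 5 members above 0 in all 18 C57BL/6J 10x libraries. For Dbp the suspension numbered 3 was the lowest of its group in 6 of 6 C57BL/6J 10x groups: fresh, cryopreserved and fixed, cold and warm. Its values ran from 15.0 to 30.8 CPM, against 21.5 to 58.7 in the others. Tef was lowest in the same number in 6 of 6 groups too, Nr1d2 in 4, Nr1d1 in 3 and Arntl in 0. The levels themselves moved with storage: Dbp in the cold suspension numbered 1 stood at 33.1 fresh, 21.5 cryopreserved and 49.8 fixed. Of 5991 genes above 0 in all 18 libraries, 74 (1.24%) were lowest in 1 number throughout, 34 of them (0.568%) in that numbered 3, which was chosen after the values were seen. Aliquots of 1 suspension share their cells, and cold and warm suspensions of a number are not stated to come from 1 mouse, so these 6 groups are at most 2 sets of independent values.

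**Figure D3:**
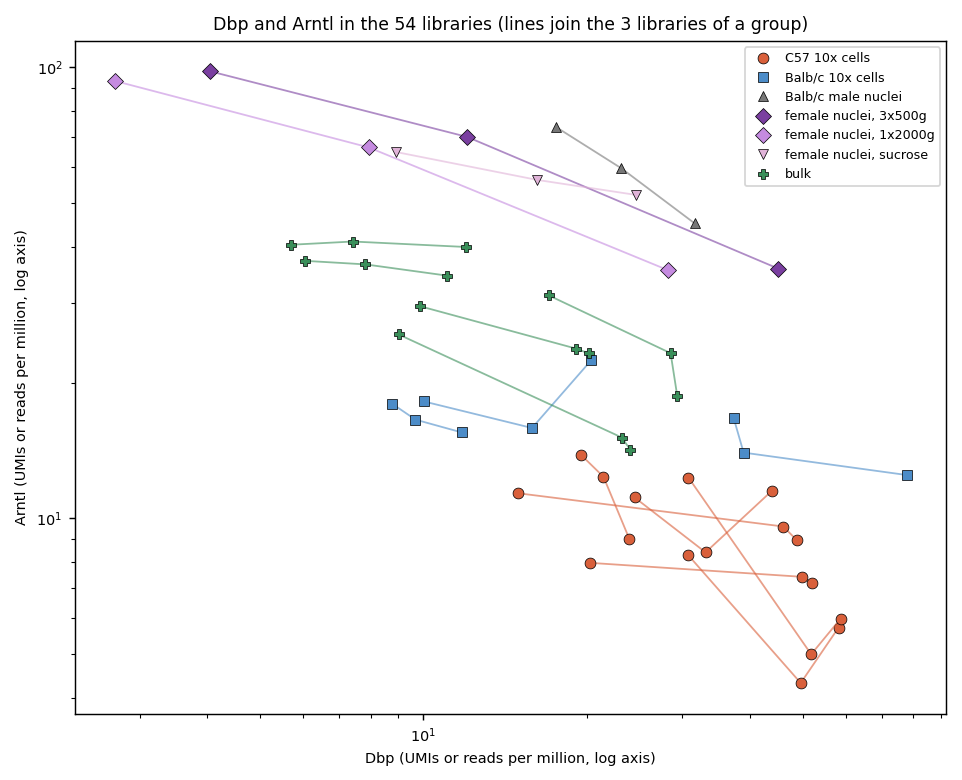
Dbp (x axis) against Arntl (y axis) in the 54 libraries, in CPM on log axes; lines join the 3 libraries of a group in the order of Dbp. In 13 of the 18 groups Arntl falls at each step as Dbp rises, among them the sorted female 3x500g and 1x2000g nuclei, whose points spread most widely along the Dbp axis.

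Across the series Arntl ran against Dbp within groups. In 13 of 18 groups the library order of Arntl was the exact reverse of that of Dbp, and in 0 of 18 was it the same. Of 5748 genes above 0 in all 54 libraries and at a mean of 5 CPM or more, Arntl alone reached 13; the median gene was reversed in 3. The D-box factor Tef followed the order of Dbp in 12 groups, the receptor Nr1d2 in 11 and Nr1d1 in 8. Among the other listed genes the cold-inducible Cirbp followed it in 9 and Bhlhe40 in 8. The median of the 5748 genes followed it in 3, and how many genes reached 8 or more was not counted. Besides Arntl, the heat shock genes Hsph1 (9 groups) and Dnajb1 (8) and the acute-response gene Dusp1 (7) were reversed most often among the listed genes above that floor. Groups that hold aliquots of the same suspensions are not independent of each other.

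The widest example was the sorted female nuclei. After 3x500g washes Dbp stood at 4.05, 45.1 and 12.0 CPM, an 11.1-fold range among 3 untreated mice of the same age, while Arntl stood at 97.9, 35.8 and 70.0. The library with the most Dbp thus had the least Arntl, and the one with the least Dbp the most Arntl. Tef stood at 139, 288 and 212, Nr1d2 at 77.2, 162 and 122, and Nr1d1 at 15.7, 43.7 and 31.8, all in the order of Dbp. Per2 stood at 10.9, 18.6 and 9.40. Per1 kept to neither order, at 25.5, 9.04 and 8.45. Npas2, a partner of ARNTL in place of CLOCK, stood at 86.2, 24.6 and 59.6, in the order of Arntl. The SD of log2(CPM + 1) of Dbp was 1.60 in this group. The median was 0.106 over the 11753 genes above 0 in all 3 libraries and at a mean of 5 CPM or more.

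In 1x2000g nuclei, also reversed, Dbp stood at 2.70, 28.2 and 7.93, Arntl at 93.2, 35.5 and 66.4, and Per1 at 24.0, 6.48 and 8.13. In sucrose nuclei Dbp stood at 24.6, 8.91 and 16.2 and Arntl at 52.1, 64.8 and 56.3, again reversed but over a narrower range. The labels do not say which libraries of the 3 protocols came from 1 mouse, and the numbers of libraries outside the C57BL/6J 10x groups only name them, so no paired fit was made there. In the females' intact kidneys Dbp stood at 11.1, 7.82 and 6.05 CPM and in their cold suspensions at 12.0, 7.42 and 5.71, a range of 1.83-fold and 2.105-fold.

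**Figure D4:**
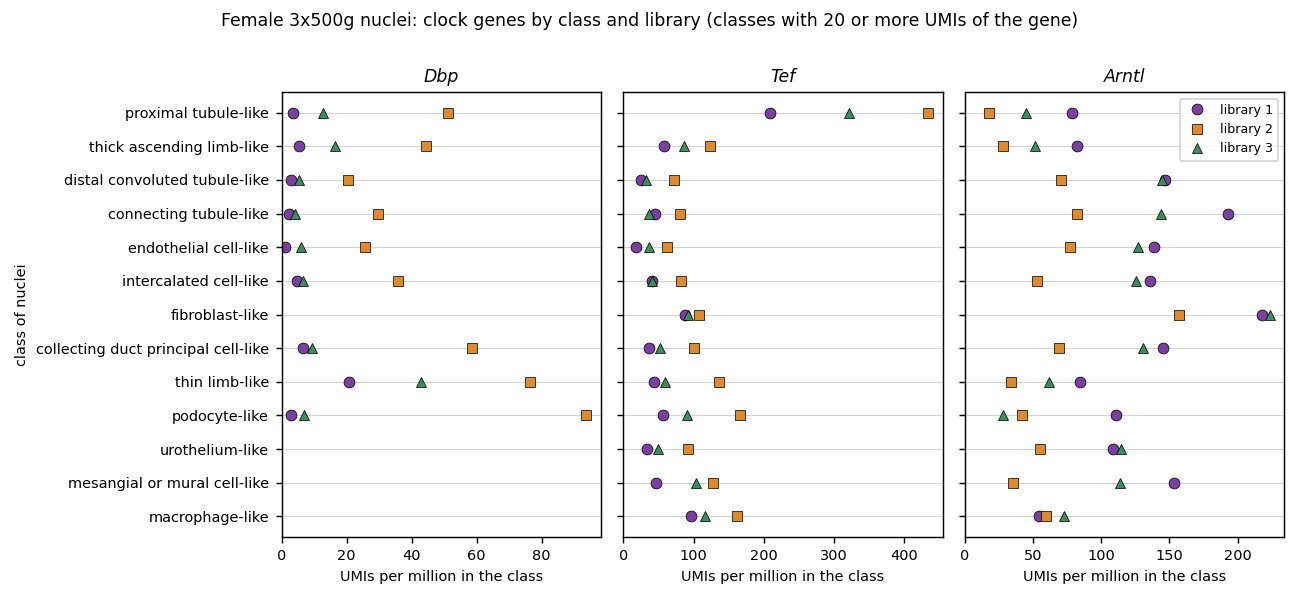
Dbp, Tef and Arntl by class of nuclei in the 3 libraries of sorted female 3x500g nuclei, in CPM of the class on linear axes from 0, for classes with 20 or more UMIs of the gene. Library 2 is highest for Dbp in 9 of 9 classes and for Tef in 13 of 13, and lowest for Arntl in 11 of 13. The UMIs are summed over the 3 libraries, so a class can be shown for Dbp through library 2 alone.

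The order of the libraries was also read inside classes of nuclei. Classes of 1 library are not separate samples and share its free RNA, whose part in these orders was not tested. In the 3x500g libraries Dbp could be read in 9 classes, with 20 or more UMIs over the 3 libraries, and 9 of 9 repeated the order of the whole libraries. Since that floor is summed, a class can pass it through library 2 alone, where Dbp was highest in both sorted protocols. The counts of classes for Dbp are thus not independent of the order they repeat. In proximal tubule-like nuclei it stood at 3.40, 51.1 and 12.8 CPM of the class, in thick ascending limb-like nuclei at 5.29, 44.5 and 16.5, and in endothelial cell-like nuclei at 1.01, 25.6 and 5.92. Arntl repeated its order in 9 of 13 classes; in proximal tubule-like nuclei it stood at 78.8, 18.03 and 44.7, and in connecting tubule-like nuclei at 193, 82.1 and 144. Tef repeated its order in 11 of 13 classes. Per1 was highest in library 1 in 10 of 10 classes and repeated its whole order in 5 of 10. For Per1 a class can pass the floor through library 1 alone, where it was highest in both sorted protocols. The counts of classes for Per1 are thus not independent of its order either. In the 1x2000g libraries 6 of 7 classes repeated the order of Dbp, 11 of 12 that of Tef, 10 of 13 that of Arntl and 6 of 10 that of Per1. The level of Arntl differed between classes as well: fibroblast-like nuclei held 218, 157 and 224 and proximal tubule-like nuclei the least of any class in library 2.

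The protocols for nuclei were compared next, with that spread among libraries in the error, so that only differences larger than it could pass. Between 1x2000g and 3x500g nuclei 0 of 8 members were called, where 34.9% of 17449 genes were, and 0 by DESeq2. Dbp differed by -0.66 ± 0.95 and Arntl by -0.08 ± 0.45. At each library number both genes were lower in 1x2000g nuclei, but the numbers are not stated to pair mice. These unpaired fits therefore do not show that the levels are equal. Between sucrose and 3x500g nuclei edgeR called 0 of 8, where 45.3% of 17304 genes were, and Nr1d1 differed by -0.68 ± 0.30 (adjusted p = 0.103). DESeq2 called Nr1d1 (adjusted p = 0.0442), and without the 3x500g library numbered 1 Nr1d1 (-0.98, adjusted p = 0.00387), Nr1d2 (-0.63, adjusted p = 0.00768) and Per1 (0.48, adjusted p = 0.0321, against -0.28 ± 0.42 with it) passed. Without that numbered 2 Arntl passed (-0.59, adjusted p = 0.0269).

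Nuclei were compared with cells to ask what each kind of library measures. The labels do not say whether nuclei and cells came from the same mice. Dbp ranged 11.1-fold among the female 3x500g nuclei libraries and 1.34-fold among the female fresh cell libraries. Differences between mice or their harvest times therefore cannot be told apart from the kind of library. In the female mice 5 of the 7 members tested were higher in 3x500g nuclei, where 84.8% of 13762 genes were called. Per2 rose 5.86-fold (2.55 ± 0.30, adjusted p = 4.48e-05), from 1.64, 1.29 and 2.01 CPM in cells to 10.9, 18.6 and 9.40 in nuclei. Tef rose by 2.15 ± 0.25, Nr1d2 by 1.80 ± 0.24 and Arntl by 1.60 ± 0.35 on the log2 scale (adjusted p from 4.74e-05 to 0.0025). Arntl stood at 15.5, 16.6 and 17.95 in cells, below every library of nuclei. Per1 rose by 1.35 ± 0.48 (adjusted p = 0.0285), and the call was lost without the cell library numbered 1 (1.19, adjusted p = 0.0924) or 2 (1.37, adjusted p = 0.0833). Dbp (0.54 ± 0.71) and Nr1d1 (-0.33 ± 0.31) were not called, and their levels overlapped. Per3 and Ciart have no value in every library of this comparison and were not analysed there.

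In the male mice 5 of 8 were called, where 81.3% of 14027 genes were and the median gene was 0.84 higher in nuclei. Tef stood at 74.8, 59.1 and 109 in cells and at 254, 312 and 226 in nuclei (1.57 ± 0.21, adjusted p = 0.000235), and Arntl at 14.0, 16.7 and 12.5 and at 45.0, 59.6 and 73.7 (1.83 ± 0.24, adjusted p = 0.000185). Per2 rose 2.02-fold (1.01 ± 0.27, adjusted p = 0.00854), near the median gene. Dbp was called lower, at -1.20 ± 0.32 (adjusted p = 0.00811), from 38.9, 37.3 and 77.8 to 31.6, 23.2 and 17.6. Nr1d1 (0.06 ± 0.18), Nr1d2 (0.11 ± 0.20) and Per1 (-0.11 ± 0.30) were not called, each below the median gene. Tef, Arntl and Per2 were thus called higher in nuclei of both sexes, while Nr1d2 and Per1 were called higher in the females alone and Dbp lower in the males alone; whether the sexes differ was not tested, and chemistry, age and sex differ together between these experiments. Reads in introns were counted for nuclei and not for cells, so this difference in counting cannot be told apart from the kind of sample.

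Per3 stood at 8.51, 8.94 and 12.5 in male cells and at 0 in all 3 libraries of male nuclei (adjusted p = 1.71e-05). At the level of cells the nuclei would have held 76.1 to 93.7 UMIs of Per3. In the GENCODE vM21 annotation of GRCm38, Per3 (chromosome 4, 151003652 to 151044665, minus strand) lies with 100% of its span inside Camta1 (150917322 to 151861876) on the same strand, in introns of Camta1, and shares 0% of its exon bases with it. For the nuclei, reads were counted on a reference that treats introns as exons. Of 74 protein-coding genes that lie inside another on the same strand and stood at 5 CPM or more in male cells, 69 (93.2%) were at 0 in all 3 libraries of nuclei, against 100 of 9026 other genes (1.11%). Camta1 stood at 111, 140 and 130 in nuclei and at 78.5, 70.3 and 77.8 in cells. No level of Per3 RNA in nuclei is read from these 0s.

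Inside classes of the female libraries 39 of 51 tested pairs of class and member were called between 3x500g nuclei and cells, 36 higher and 3 lower, over 11 classes, where 80.4% of all tests were called. Nr1d2 rose in 11 of 11 classes, by 1.34 to 2.61 on the log2 scale, Arntl in 9 of 9, by 1.14 to 2.72, and Tef in 9 of 10, with 1.17 ± 0.54 in thin limb-like cells not passing (adjusted p = 0.0522). Per2 rose in 3 of 3 and Per1 in 4 of 5. Dbp was called in 0 of 4. Nr1d1 was lower in 3 of 9 classes: podocyte-like (-1.14 ± 0.36), thin limb-like (-1.33 ± 0.35) and thick ascending limb-like (-0.75 ± 0.33), with adjusted p from 0.00144 to 0.0427. Its paralog Nr1d2 was called higher in those 3 classes; the difference between the paralogs was not tested. Calls of Nr1d1 were lost without 1 library in each class: without the nuclei library numbered 1 in podocyte-like (-0.87, adjusted p = 0.0698) and thick ascending limb-like cells (-0.39, adjusted p = 0.0621), without the cell library numbered 1 (-0.46, adjusted p = 0.279) or 2 (-0.88, adjusted p = 0.0574) in thick ascending limb-like cells, and without the cell library numbered 2 in thin limb-like cells (-0.63, adjusted p = 0.226). The call of Arntl in proximal tubule-like cells was also lost without the nuclei library numbered 1 (0.59, adjusted p = 0.137) or any 1 of the cell libraries (adjusted p 0.0774 to 0.125).

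**Figure D5:**
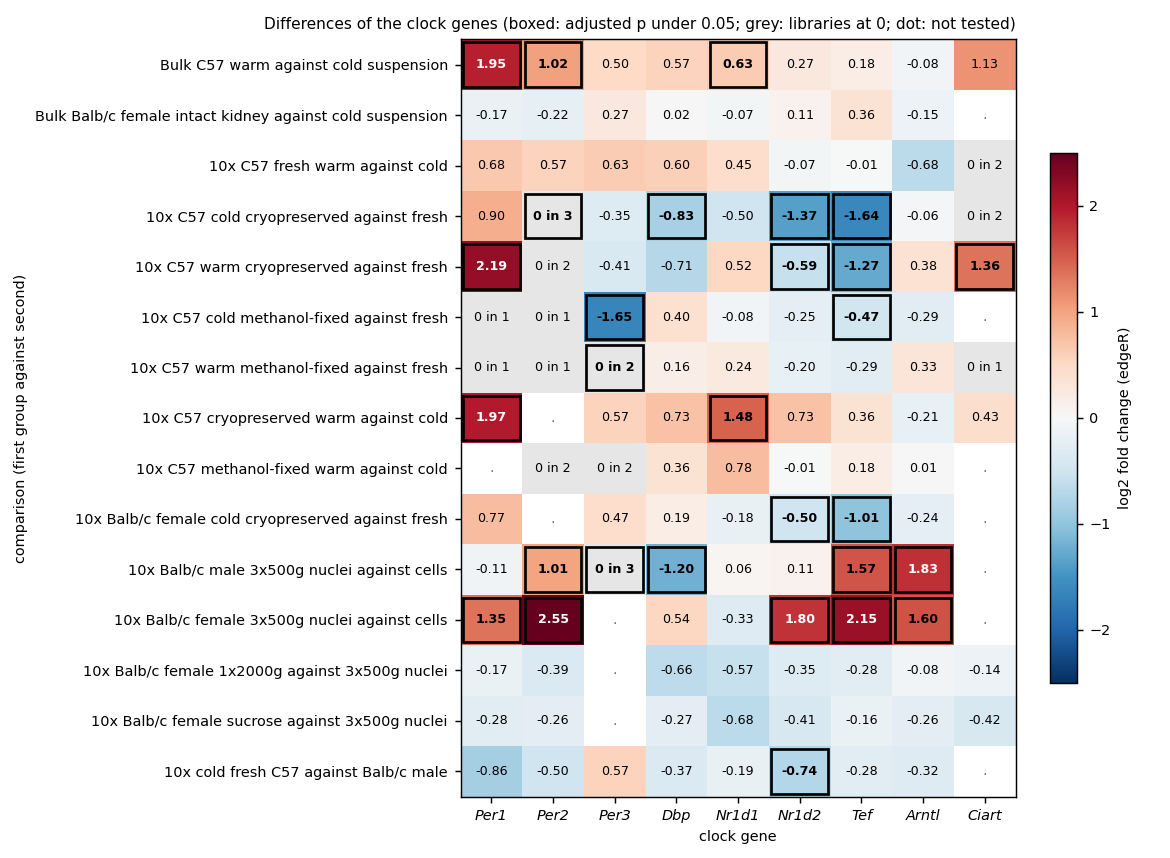
Log2 fold change of each clock gene in the 15 comparisons of 2 groups, from edgeR (first group against second, red higher); black boxes mark an adjusted p under 0.05, grey cells give how many libraries stood at 0, and dots mark genes not tested. Tef is boxed in 6 comparisons, Nr1d2 in 5, and Per1 and Per2 in 4 each. Of all genes, 2.11% to 84.8% were called in these comparisons.

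Intact kidney was compared with cold suspension in the female bulk libraries to ask what cold dissociation itself changes. Of 8 members tested 0 were called by edgeR or DESeq2 in the unpaired fit, where 20% of 16538 genes were called and 5337 differed at an unadjusted p under 0.05. Per1 stood at 12.4, 18.1 and 15.7 CPM in intact kidney and at 15.8, 16.8 and 19.5 in suspensions (-0.17 ± 0.13), and Nr1d1 at 108, 93.8 and 76.8 and at 116, 99.4 and 80.5 (-0.07 ± 0.15). Arntl stood at 34.5, 36.5 and 37.2 and at 39.9, 41.1 and 40.4, without overlap, a difference of -0.15 ± 0.05 (adjusted p = 0.0722). Tef (0.36 ± 0.17), Per3 (0.27 ± 0.14), Per2 (-0.22 ± 0.11), Nr1d2 (0.11 ± 0.14) and Dbp (0.02 ± 0.29) were not called either. Of 10 acute-response genes 1, Sik1, was higher in intact kidney (1.11), and Bhlhe40 was 0.40 higher there. Of 17 other core clock genes 2 were called higher and 1 lower, and of 9 clock-controlled output genes 1 higher and 1 lower.

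Between the strains, cold fresh cells of C57BL/6J and Balb/c males differed in 1 of 8 members, where 14.2% of 11225 genes were called. Nr1d2 stood at 34.1, 43.0 and 38.8 in C57BL/6J and at 60.2, 63.7 and 99.8 in Balb/c libraries, a difference of -0.74 ± 0.19 (adjusted p = 0.0365), without overlap. The call was lost without any 1 of 5 of the 6 libraries (adjusted p 0.0609 to 0.117), and strain and experiment cannot be told apart. Per1 (-0.86 ± 0.45), Per2 (-0.50 ± 0.55), Per3 (0.57 ± 0.32), Dbp (-0.37 ± 0.30), Arntl (-0.32 ± 0.22), Tef (-0.28 ± 0.19) and Nr1d1 (-0.19 ± 0.24) were not called.

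Over the 18 C57BL/6J cell libraries, the genes whose log2 level was most like that of each member were named from 9757 genes with a mean of 20 UMIs or more. For Per1 they were Tnfaip3 (Pearson r = 0.963), Spry1 (0.924) and Cd69 (0.916). For Nr1d1 they were Gdf15 (0.855), Mt2 (0.852) and Bhlhe40 (0.827), and for Dbp Ccdc28a (0.806), Osr2 (0.778) and Tbxas1 (0.778). For Tef they were Rnf11 (0.907), Fam214a (0.902) and Fnip2 (0.901), and for Nr1d2 Cobll1 (0.919), Mob1b (0.908) and Esrrg (0.898). For Arntl they were Pdia6 (0.841), Nfkbil1 (0.817) and Dpf2 (0.808), and for Per3 5930430L01Rik (0.971), Akap2 (0.963) and Rab11fip2 (0.945). These values describe libraries that share suspensions and differ in storage, cell makeup and depth, with no test. Per1 and Per3 stood at 0 in 2 of the 18 libraries, and these 0s enter their r values. Per2 and Ciart had too few UMIs for it.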

How the data were processed

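Single-cell and single-nucleus libraries were made with 10x Genomics chemistry and bulk libraries by RNA sequencing. The authors deposited raw counts in both cases: UMI counts per gene and barcode from Cell Ranger 2.1.1, after their own filters on cells and genes, and bulk read counts per gene from featureCounts after STAR 2.6.1a, on build GRCm38. For each 10x library they kept genes found in at least 10 cells before removing further cells, and up to 852 genes of a library stand in 1 to 9 cells. Nuclei were counted on exons and introns, cells on exons. Bulk RNA was ribosome-depleted in the first 2 experiments and poly(A)-selected in the third.

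UMI counts were summed per library without mitochondrial genes. Each comparison was fitted over its own groups with edgeR 4.0.16 (R 4.3.3; TMM scaling, filterByExpr, quasi-likelihood test, Benjamini-Hochberg adjustment over all genes), and the script was tested on simulated data. DESeq2 1.42.0, other scalings and filters, and leaving out each library were alternatives. The replicate block by suspension number and a filter to genes above 0 in every library were chosen after seeing the data. Depth limits precision: 983522 to 35170947 UMIs and 2326998 to 31093949 reads per library. Libraries of a group came from 3 mice.

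Cells were clustered (2000 variable genes, 30 components, 20 neighbours, Leiden at resolution 2, leidenalg 0.10.2) and a cluster was called by a class with at least 3 of its markers. Doublets were kept. Clusters without a class held 2.47% of C57BL/6J cells, 8.60% of female cells and 3.92% of female nuclei, and class sums needed 10 cells per library. At most 2.05% of barcodes were shared between 2 libraries.

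Fresh, cryopreserved and methanol-fixed libraries of a number and dissociation were aliquots of 1 suspension, and the number was taken to pair them. Over 5597 genes their deviations from the group means correlated at 0.286 to 0.454 (cold) and 0.178 to 0.316 (warm) between fresh and methanol-fixed, but at 0.0247 to 0.106 (cold) and -0.0704 to 0.0366 (warm) between fresh and cryopreserved libraries, where the data do not show the pairing. The members and lists were chosen with earlier results of these data known. Every member was to be named in every comparison; those the text leaves out are in the plot of log2 fold changes. Counts of called list genes are given for part of the comparisons, with a few called genes; Usp2, Csnk1e, Clock, Alas1, Sgk1 and Npas2 were in part chosen after their values were seen.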

Additional observations from a re-analysis of the deposited data

Results flagged for a closer look

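The warm effect on Per1 differed between storage states in a test of the difference that only just passed. The effect was 1.26 larger on the log2 scale in cryopreserved than in fresh C57BL/6J cells (SE 0.34, edgeR adjusted p = 0.0489). With the suspension number as a replicate block, the adjusted p was 0.0771. That block ties warm to cold suspensions, which are not stated to share a mouse. Leaving out any of 10 of the 12 libraries also lost the call (0.0537 to 0.122). Warm exceeded cold in 3 of 3 libraries of both storage states. The warm libraries stood at 7.16, 6.81 and 6.23 CPM fresh and at 42.3, 44.1 and 32.3 cryopreserved. Bhlhe40 had the same sign, with a warm effect 1.87 larger in cryopreserved cells (adjusted p = 0.0019), and so did Crem (0.91, adjusted p = 0.0225), while 7 of 10 acute-response genes had a smaller effect there. Summed proximal tubule markers stood at 44 to 65 CPM in the warm cryopreserved and at 6935 to 7423 in the warm fresh libraries, and their part in the difference was not tested.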

How the results depend on the processing

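Of 2285 values of single members under alternatives, 2162 kept their side of the threshold, 2072 of them with the same sign and 90 with the other. The call was lost in 83, and 39 gained one in the same direction. In 1 the sign reversed into a call: Per1 for sucrose against 3x500g nuclei, at -0.55 to 0.48 on leaving out 1 library, the latter without the 3x500g library numbered 1. Of 273 counts of called members, 220 stayed within 1.5 times, and the cause of the other moves was not tested. Leaving out 1 library gave 3 to 5 calls in C57BL/6J bulk RNA, 0 to 1 for fresh warm against cold, 2 to 4 for warm cryopreserved, 1 for cold methanol-fixed and 0 to 1 for warm methanol-fixed cells against fresh, 1 to 3 for cryopreserved warm against cold, 1 to 3 for female cryopreserved against fresh, 0 to 3 for sucrose against 3x500g nuclei, 0 to 1 between strains and 0 to 1 for the cryopreservation interaction. Inside classes it gave 0 to 1 calls for fresh warm against cold and 1 to 2 for cold methanol-fixed cells. DESeq2 called 1 member for cold methanol-fixed against fresh, 1 for methanol-fixed warm against cold, 1 for sucrose against 3x500g nuclei and 2 in the cryopreservation interaction, where size factors of the RLE kind left 0. Without a low-count filter the bulk count was 7 and that inside classes for cold cryopreserved cells 2. With only genes above 0 in every library the counts were 1 for methanol-fixed warm against cold, 0 for warm methanol-fixed against fresh and 2 in the cryopreservation interaction. Scaling by library totals gave 4 calls for female cryopreserved cells, and a fit over all 10x libraries of that experiment gave 1. Library totals moved all genes by 0.42 there, by 0.35 for warm and 0.20 for cold cryopreserved cells, by 0.46 for female and 0.17 for male nuclei, by -0.17 for cold methanol-fixed cells, by -0.15 for fresh warm against cold, by -0.18 between strains and by 0.18 in the cryopreservation interaction.

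Warm and cold suspensions of a number are not stated to come from 1 mouse. Their same-numbered deviations correlated at -0.126 to 0.280 in fresh, -0.260 to -0.0226 in cryopreserved and 0.0784 to 0.133 in methanol-fixed cells. With the number as a replicate block the calls were 2 for fresh warm against cold (Per3 and Dbp), 1 for cryopreserved warm against cold, 0 in the cryopreservation interaction and, inside classes, 1 for fresh warm against cold.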
